A study of Mus musculus with 19 samples.

Results

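SOX9-only peaks beyond 100 kb are places where SOX9 was bound in glial progenitor cells, far from the start of their assigned gene. They do not overlap peaks of SOX3 or NFIA, though some lie close to one. They were taken from the deposited SOX9 peak list as the peaks whose distance to the start of the gene assigned by the authors exceeded 100000 bp in either direction and that shared no base with a SOX3 or an NFIA peak. Of 2943 SOX9 peaks, 577 (19.6%) met both conditions, and they were assigned to 462 genes. Position and lack of overlap therefore chose the peaks and are given here as a description, whereas RNA levels played no part in the choice.

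Peaks and RNA came from mouse embryonic stem cells differentiated to glial cells in culture. The RNA libraries comprised 3 of glia, labelled as glial cells derived from embryonic stem cells, and 4 of glial progenitor cells (GPC) from the same source. The SOX9 list came from 3 immunoprecipitated GPC samples, and the SOX3 list of 1367 peaks and the NFIA list of 14164 peaks came from 2 GPC samples each. No genotype or mutation is given for any group, and glia and GPC carry one protocol text. According to it, cells were differentiated with 0.1 µM all-trans retinoic acid, sorted at day 8 with beads against the surface antigen A2B5, and expanded on fibronectin with EGF and FGF2 at 10 ng per ml. The sources used here do not say how glia were obtained or whether replicates were separate cultures. P-values therefore measure the spread between libraries, which may be technical. No binding was measured in glia.

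SOX9 is a transcription factor with an HMG box, the DNA-binding domain of the SOX family, and belongs to the SoxE group. In the embryonic neural tube it is known for the switch of neural stem cells from making neurons to making glia, and it induces and then cooperates with NFIA, a nuclear factor I protein of the same switch. Many sites bound by such factors are enhancers that lie far from a promoter, and the gene with the nearest start need not be the one they act on. A peak is accordingly said here to border its assigned gene, with no claim that it controls it.

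Glial markers set the RNA groups apart. Levels are given as RPKM (reads scaled to gene length and library size). Gfap, the astrocyte filament gene, was at 2931 to 3489.5 RPKM in glia and 5.64 to 15.4 RPKM in GPC. Mbp, which encodes a myelin protein of oligodendrocytes, was at 782 to 1177 RPKM in glia and 6.03 to 15.9 RPKM in GPC. Progenitor markers summed to 3925 to 4077 RPKM in glia and 8425 to 9008 RPKM in GPC, although Pdgfra and Sox2 of that list rose in glia. Mesenchymal markers, such as the collagen gene Col1a1, summed to 561 to 666 RPKM in glia and 120 to 140.2 RPKM in GPC, with all 5 higher in glia. Neuronal markers summed to 100.1 to 114 RPKM in glia and 29.7 to 34.8 RPKM in GPC, with 5 of 6 higher in glia. Markers of microglia, endothelium and pluripotent cells stayed at or below 1.003 RPKM in sum in each library of both groups. Library totals were 6897294 to 17369367 counts in glia and 12836998 to 22439837 counts in GPC. GPC replicate 3, the deepest, stood apart: its counts gave chi-square values per gene of 25.8 to 29.9 against its fellow GPC libraries, which among themselves gave 2.05 to 3.59.

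SOX proteins recognise short AT-rich words in DNA. Distances in the peak list run from a gene's start, so promoters of 3 of the bordering genes are shown, each from 250 bases before to 50 after the start, from RefSeq and build GRCm38.p6. Sox2 was chosen for the highest RNA level in glia among neural and glial transcription factor genes with 3 or more far peaks. Ntrk2 was chosen because it had the highest RNA level of all bordering genes in glia. Sorl1 had the largest rise in glia that passed the test among genes with 3 or more far peaks. Capitals mark a SOX word. The first word searched was ACAAAG, which reads as CTTTGT when the opposite strand carries it. The second word searched was ACAATG, which reads as CATTGT in the same way.
Sox2, chr3:34649745-34650044, plus strand: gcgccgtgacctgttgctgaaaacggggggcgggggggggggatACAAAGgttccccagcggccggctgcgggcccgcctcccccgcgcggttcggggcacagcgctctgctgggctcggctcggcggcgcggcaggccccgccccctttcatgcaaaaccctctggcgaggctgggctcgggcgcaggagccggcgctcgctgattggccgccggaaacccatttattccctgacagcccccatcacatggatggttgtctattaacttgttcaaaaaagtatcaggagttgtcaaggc
Ntrk2, chr13:58806319-58806618, plus strand: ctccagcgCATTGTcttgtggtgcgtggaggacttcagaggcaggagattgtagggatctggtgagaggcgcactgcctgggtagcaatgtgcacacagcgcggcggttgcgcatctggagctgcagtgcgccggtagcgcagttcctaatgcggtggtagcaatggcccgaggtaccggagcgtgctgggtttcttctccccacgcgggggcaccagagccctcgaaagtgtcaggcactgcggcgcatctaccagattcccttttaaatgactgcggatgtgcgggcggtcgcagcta
Sorl1, chr9:42124248-42124547, minus strand, the first of 2 RefSeq entries: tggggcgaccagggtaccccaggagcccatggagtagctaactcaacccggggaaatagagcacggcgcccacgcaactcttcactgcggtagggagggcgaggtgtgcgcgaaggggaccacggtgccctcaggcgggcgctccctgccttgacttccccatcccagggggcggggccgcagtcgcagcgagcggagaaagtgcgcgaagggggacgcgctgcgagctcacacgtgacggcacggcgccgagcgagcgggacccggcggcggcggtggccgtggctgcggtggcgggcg

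The Sox2 and Ntrk2 promoters held 1 such word each and the Sorl1 promoter none. A word was found in 79 of the 336 bordering genes with a RefSeq promoter (23.5%) and in 28.8% of 27025 promoters in all. Matches are letters in a window and say nothing about SOX9 there. The peaks themselves have coordinates in the older build mm9, for which no genome was at hand, so their sequences are not shown and their coordinates cannot be set against those of the promoters.

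The far SOX9-only peaks made up 61.0% of the 946 SOX9 peaks beyond 100 kb. Of the remaining far peaks, 257 shared bases with NFIA alone, 98 with SOX3 alone and 14 with both. The median distance of the far SOX9-only peaks was 251752 bp, with quartiles at 159474 and 409438 bp. Downstream of the assigned start lay 323 peaks (56.0%, median 239739 bp) and upstream 254 (44.0%, median 262411 bp). All distances run from the start, so a downstream peak may lie within the body of its gene. Which peaks do so was not determined. Between 100 and 200 kb there were 124 peaks in the nearer and 90 in the farther 50 kb, and 129 lay at 200 to 300 kb, 122 at 300 to 500 kb, 81 at 500 kb to 1 Mb and 31 beyond 1 Mb. Among those beyond 1 Mb, 20 were upstream and 11 downstream. In the 542 cases that could be compared, no other gene of the SOX9 and SOX3 lists had a nearer start than the assigned one. Only listed genes with a known strand entered this comparison, so a nearer gene without a peak would be missed. Chromosome 18, with 35 of the peaks, was left out for want of strands.

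**Figure D1:**
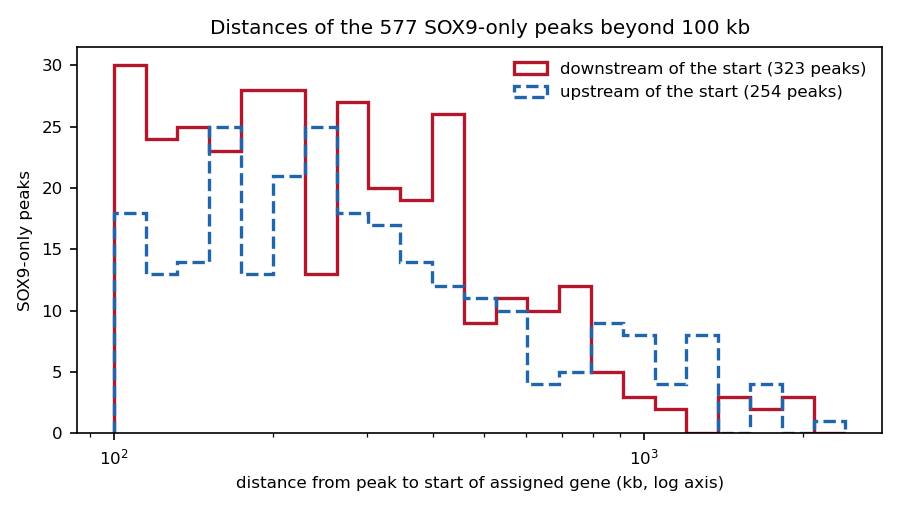
Number of far SOX9-only peaks (vertical axis) against distance to the start of the assigned gene in kb (horizontal log axis), for 323 peaks downstream (solid) and 254 upstream (dashed). Most peaks lie under 500 kb, and the tail reaches 2258409 bp upstream.

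At the 100 kb limit, the nearest peaks inside it bordered Arl4c, which encodes a small GTPase, at 100079 bp upstream, Ehf, an epithelial Ets factor, at 100791 bp downstream, and Bach2, a leucine zipper factor, at 100857 bp upstream. Just short of it lay SOX9-only peaks of Pabpc4l at 98831 bp upstream, of the stress gene Gadd45g at 99490 bp downstream and of the zinc finger gene Zbtb16 at 99678 bp downstream. RNA differed as widely within each trio. Arl4c averaged 9.97 ± 0.427 RPKM in glia and 13.99 ± 0.576 RPKM in GPC (SD, n = 3 and 4), Bach2 4.74 ± 0.477 RPKM in glia and 4.80 ± 0.130 RPKM in GPC, and Ehf had 1 read in each of 2 libraries. Across the limit, Gadd45g averaged 113 ± 12.3 RPKM in glia and 31.7 ± 7.72 RPKM in GPC, Zbtb16 1.63 ± 0.126 RPKM in glia and 0.642 ± 0.100 RPKM in GPC, and Pabpc4l 0.292 ± 0.132 RPKM in glia and 0.165 ± 0.0542 RPKM in GPC. The farthest peaks bordered Ptprd (2258409 bp upstream), a receptor tyrosine phosphatase gene of synapses, the transcript 4930555F03Rik (1962146 and 1770983 bp downstream), Olfm4 (1925427 bp downstream), which encodes a secreted glycoprotein, and Pcdh9 (1903129 bp downstream), a protocadherin gene. Ptprd stood at 13.6 ± 2.99 RPKM in glia and 3.95 ± 0.824 RPKM in GPC across the same libraries. Olfm4 was at 0.200 ± 0.101 RPKM in glia, with no read in GPC, and 4930555F03Rik was not matched to the expression table.

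Some of the 577 peaks are not separate places. All are 601 bp wide, and 38 of them overlap one another in 18 regions, so that 557 distinct regions remain. Joining peaks with gaps of up to 25000 bp left 529 clusters, of which 34 held 2 or more peaks and 82 peaks in all. The largest cluster held the 11 peaks of Adam29 within chr8:57975146-57999313 in mm9, a span of 24168 bp. Its nearest peak lay 386733 bp downstream of the start of the gene. The 4 peaks of Fndc1 overlap in 1 region of 1226 bp, chr17:7892737-7893962. The peaks lay on 21 chromosomes, with the most on chromosome 8 (43 of its 186 SOX9 peaks), 23 of 68 on X and 3 of 4 on Y.

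The median gap to the nearest peak was 65081 bp for NFIA and 752954 bp for SOX3, and 285263 bp to another SOX9 peak. An NFIA peak lay within 10 kb of 80 of the peaks (13.9%) and a SOX3 peak within 10 kb of 9 (1.56%). For the 1052 SOX9-only peaks at 1 to 100 kb from a start these shares were 15.7% and 2.47%, with median gaps of 57203 bp to NFIA and 566680 bp to SOX3. Since lack of overlap was a condition for both sets and NFIA peaks are the more numerous, these gaps are descriptive. Some far SOX9-only peaks lay almost against another factor's peak, with an NFIA gap of 0 bp at Gm3099 and a SOX3 gap of 8 bp at Rad51b.

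Most genes collected a single far peak. Of the 462 genes, 386 had 1 peak, 56 had 2 and 20 had 3 or more, and 53 had peaks in 2 or more separate clusters. Far SOX9-only peaks lay on both sides of 12 genes. These were the only SOX9 peaks of 309 genes (66.9%), while 88 genes (19.0%) also had a SOX9 peak within 100 kb, 81 (17.5%) a far SOX9 peak shared with SOX3 or NFIA, and 122 (26.4%) a SOX3 peak. The 20 genes with most peaks were Adam29 with 11, Vmn2r121 with 8, Pcdh9 with 5, Fndc1, Lphn3, Sall3 and Slc39a11 with 4, and Adamts9, Arrdc4, Cdh8, Gm5506, Lrrc4c, Lsamp, Qk, Rbfox1, Rpl13a-ps1, Sorl1, Sox2, Sox6 and Zfp608 with 3.

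**Figure D2:**
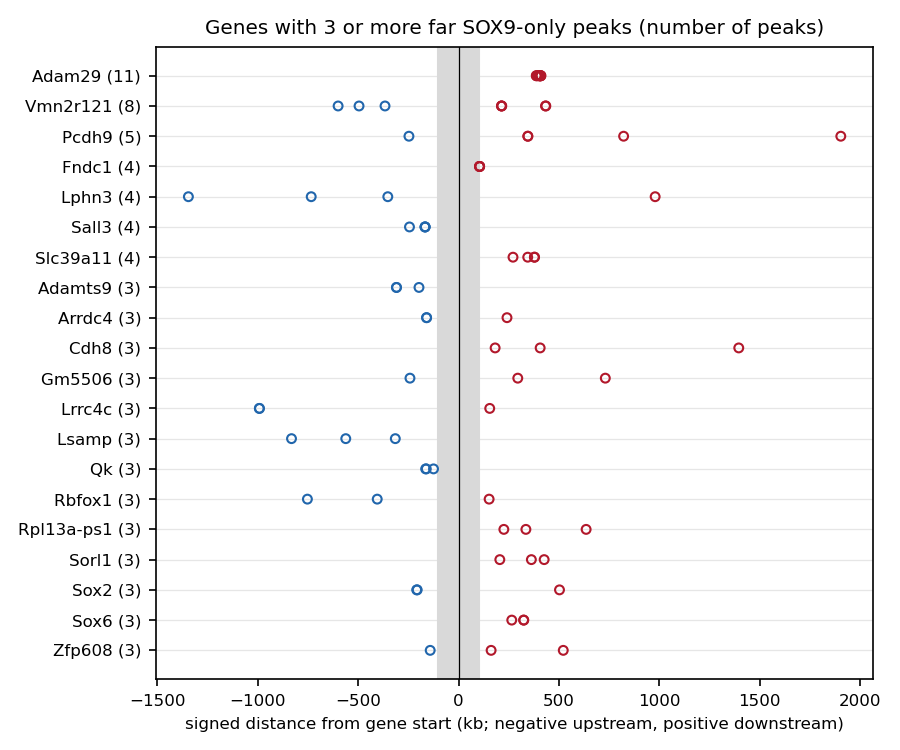
Signed distance in kb of each far SOX9-only peak from the start of its gene (horizontal axis), for the 20 genes with 3 or more such peaks (rows, with the number of peaks in brackets). Blue circles lie upstream and red circles downstream, the grey band covers the 100 kb on each side that the peaks had to exceed, and the 11 peaks of Adam29 fall together at 386733 to 410300 bp.

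Adam29 and Vmn2r121, which collected the most peaks, had 0 reads in all 7 libraries. Adam29 is a metalloprotease gene of the testis and Vmn2r121 a pheromone receptor gene of the vomeronasal organ. Genes with 2 or more far SOX9-only peaks were not low as a set. Their medians were 8.35 RPKM in glia and 7.92 RPKM in GPC, beside 4.82 and 4.77 RPKM for all bordering genes. The 8 peaks of Vmn2r121 lay on X in 5 clusters, 3 upstream and 5 downstream, at 213398 to 599876 bp. In all, 35 of the 418 bordering genes in the expression table (8.37%), with 58 peaks, had no read in any library. This share was below the 22.1% of all 22958 genes of the table. A further count, which includes them, was of genes that averaged under 1 RPKM in glia and in GPC alike. There were 116 of these among the 418, with 149 peaks, beside 10109 of the 22958.

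At the other end, Qk and Gm5506, with 3 peaks each, were among the bordering genes with the highest levels. Qk encodes quaking, an RNA-binding protein needed for myelin, and its 3 peaks lay 124799, 160919 and 163890 bp upstream on chromosome 17. Its level was 227, 243 and 210.3 RPKM in glia, against 178, 215, 229 and 204 RPKM in GPC. The groups overlapped, and the log2 change of 0.15 ± 0.10 (SE) did not pass the test (adjusted p = 0.189), though without GPC replicate 3 it was 0.22 and passed (adjusted p = 0.0172). Gm5506 is an intronless copy of the enolase gene Eno1 and may share reads with it, so that its level is uncertain. It fell to 163, 114 and 189.9 RPKM in glia, against 266, 243, 531 and 266 RPKM in GPC (log2 change -1.08 ± 0.33, adjusted p = 0.0194). No glia library reached the lowest GPC library, and without GPC replicate 3 the log2 change was -0.71. The call was lost with no filter on low counts (adjusted p = 0.0528) and without glia replicate 2 (0.0748).

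Transcription factor genes bordering far peaks went both ways. On the list of neural and glial transcription factors, 26 genes bordered such peaks, 22 were expressed enough to test, 8 rose, 7 fell and 7 did not pass, with a median log2 change of 0.17. The 248 tested genes of the list without a far SOX9-only peak had 75 rises, 89 falls and a median of -0.01. Over all 13588 genes tested, 70.4% were called, 35.2% in each direction, and the transcription factors' share of 68.2% is near that background.

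The SOX family held 6 bordering genes with 10 far peaks. Sox2, a SoxB1 gene of neural stem cells and early glia, had peaks on chromosome 3 at 208468 and 206148 bp upstream (chr3:34340160-34340760 and chr3:34342480-34343080) and at 502451 bp downstream (chr3:35051078-35051678). Sox2 measured 186, 163 and 192 RPKM in glia, against 141, 144, 163 and 153 RPKM in GPC. The lowest glia library lay level with the highest GPC library. The log2 change of 0.24 ± 0.08 passed the test (adjusted p = 0.0273) and was lost when any of GPC replicates 1, 2 or 4 or glia replicates 1 or 3 was left out (adjusted p = 0.0603 to 0.109). Sox6, a SoxD gene that restrains oligodendrocyte maturation, had 3 peaks at 264790 to 324358 bp downstream. Its 34.6, 39.1 and 29.5 RPKM in glia stood against 28.5, 30.6, 26.7 and 30.2 RPKM in GPC. The groups overlapped and the log2 change was 0.21 ± 0.09 (adjusted p = 0.0570), yet it passed without glia replicate 3 (adjusted p = 0.00737), with the replicate block (0.0334) and with a minimum of 50 counts (0.0317). Sox4, a SoxC gene, had 1 far peak and 171 ± 24.2 RPKM in glia and 163 ± 34.6 RPKM in GPC, with a log2 change of 0.04. Sox11, its SoxC relative in immature neurons, fell by 0.77 ± 0.13 and Sox5, the SoxD partner of Sox6, fell by 0.54 ± 0.11 on the log2 scale.

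SOX9's own gene was among the members. A single far SOX9-only peak lay 118737 bp downstream of the start of Sox9, at chr11:112761975-112762575. Sox9 RNA was 76.4, 75.2 and 75.8 RPKM in glia, against 53.5, 53.9, 62.7 and 52.5 RPKM in GPC. Every glia library exceeded every GPC library, and the log2 rise was 0.41 ± 0.08 (adjusted p = 0.000690). The next far SOX9-only peaks along chromosome 11 were assigned to Slc39a11, which encodes the zinc transporter ZIP11 and whose downstream protein-coding neighbour in RefSeq is Sox9. They lay 270927 to 378296 bp downstream of the start of Slc39a11 and 285910 to 393280 bp beyond the Sox9 peak. Slc39a11 itself had 11.9, 11.2 and 11.8 RPKM in glia, against 9.98, 10.3, 10.7 and 11.1 RPKM in GPC, a log2 change of 0.12 ± 0.08 that did not pass (adjusted p = 0.196). Of the genes for the other bound factors, Nfia rose to 23.3 ± 3.34 RPKM in glia, against 12.1 ± 2.49 RPKM in GPC (log2 change 0.89 ± 0.15, adjusted p = 0.000637). Sox3 fell to 39.2 ± 8.91 RPKM in glia, against 82.4 ± 26.4 RPKM in GPC (log2 change -1.09 ± 0.26, adjusted p = 0.00638).

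Among the other transcription factor genes, Sall3 had the largest fall. It encodes a zinc finger protein of the spalt family, and its 4 far peaks lay 166211 to 244489 bp upstream. Sall3 fell to 11.2, 10.8 and 12.02 RPKM in glia, against 75.7, 74.3, 70.7 and 77.3 RPKM in GPC. The groups lay far apart, with a log2 change of -2.74 ± 0.07 (adjusted p = 2.04e-09). Irx1, an Iroquois homeobox gene with 2 overlapping peaks downstream, rose to 28.2 ± 3.47 RPKM in glia, against 18.4 ± 2.00 RPKM in GPC (adjusted p = 0.000860). The Krüppel-like factor genes Klf12 and Klf6, with 2 peaks each, fell by 0.25 ± 0.09 and 0.23 ± 0.09 on the log2 scale (adjusted p = 0.0340 and 0.0413). Both calls were lost with a minimum of 50 counts and when glia replicate 3 or GPC replicate 1, 2 or 4 was left out, Klf6 also without glia replicate 1 and with the replicate block. The adjusted p then ran from 0.0573 to 0.132 for Klf12 and from 0.0564 to 0.180 for Klf6. Zfp608, a zinc finger gene with 3 peaks, had 14.2 ± 0.345 RPKM in glia and 14.3 ± 0.854 RPKM in GPC. Chosen after their values were seen, Maf and Prdm16 had the steepest rises of the list. Maf, a leucine zipper gene, rose to 14.04 ± 0.229 RPKM in glia, against 1.78 ± 0.591 RPKM in GPC, and Prdm16 to 1.14 ± 0.0940 RPKM in glia, against 0.176 ± 0.0561 RPKM in GPC.

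Genes for cell adhesion and axon guidance, the proteins by which neural cells recognise and contact each other, were the most numerous of the named roles. Of 45 bordering genes, 43 were in the expression table and 35 were tested. Of these, 23 rose (65.7%), 8 fell (22.9%) and 4 did not pass, beside 35.2% called in each direction over all genes. The median log2 change was 1.03, beside 0.00 over all genes. The 217 tested genes of the list with no far SOX9-only peak had 119 rises, 54 falls and a median of 0.50. Without GPC replicate 3 the bordering genes had 23 rises and 9 falls. Neuronal markers moved with this group, at 100.1 to 114 RPKM in sum in glia and 29.7 to 34.8 RPKM in GPC, with 5 of 6 higher in glia. Mesenchymal markers did so too, at 561 to 666 RPKM in sum in glia and 120 to 140.2 RPKM in GPC, with 5 of 5 higher in glia. The part of either in these changes was not tested.

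All 3 bordering IgLON genes, which encode small immunoglobulin-domain proteins anchored in the membrane, rose, beside 35.2% of all genes tested. They were grouped after their values were seen. Lsamp, with peaks 315070, 561732 and 831884 bp upstream, had 32.4, 27.8 and 34.3 RPKM in glia, against 11.5, 11.8, 20.3 and 11.4 RPKM in GPC. The highest GPC library, replicate 3, stayed below every glia library, and the log2 change was 1.16 ± 0.21 (adjusted p = 0.00139). Ntm, which encodes neurotrimin, had a peak 118391 bp upstream and 26.1, 22.4 and 25.9 RPKM in glia, against 2.36, 2.64, 3.99 and 2.75 RPKM in GPC, a log2 change of 3.01 ± 0.16. Opcml had 4.05 ± 0.241 RPKM in glia and 0.890 ± 0.161 RPKM in GPC. Igsf11, the upstream neighbour of Lsamp in RefSeq, is another immunoglobulin-domain adhesion gene. A further far peak lay downstream of its start, and Igsf11 rose by 2.51 ± 0.24 on the log2 scale.

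Cadherin and protocadherin genes, which encode calcium-dependent adhesion proteins, did not move as one. There were 13 with 22 far peaks, of which 5 rose, 6 fell and 2 were too low to test. Over all genes tested, 35.2% were called in each direction. Pcdh9 collected 5 peaks, 1 at 247192 bp upstream and the others at 344785 to 1903129 bp downstream. Pcdh9 measured 20.4, 20.6 and 16.8 RPKM in glia, against 28.1, 31.4, 19.5 and 31.0 RPKM in GPC. GPC replicate 3 fell among the glia libraries, and the log2 change of -0.54 ± 0.16 (adjusted p = 0.0130) was no longer called once glia replicate 3 was left out (adjusted p = 0.0615). Cdh8, with peaks 181957, 406166 and 1395058 bp downstream, was low throughout, at 0.466, 0.456 and 0.506 RPKM in glia, against 0.0566, 0.0836, 0.0816 and 0.0984 RPKM in GPC. Its log2 rise of 2.43 ± 0.31 rests on 2 to 7 reads per GPC library. Its upstream neighbour Cdh11, with 2 peaks, rose to 58.8 ± 4.23 RPKM in glia, against 15.01 ± 3.39 RPKM in GPC. In the other direction, Cdh4 fell to 6.16 ± 0.550 RPKM in glia, against 31.4 ± 1.52 RPKM in GPC, and Cdh2, N-cadherin, fell by 0.99 ± 0.09 on the log2 scale. Cdh11, Cdh4 and Cdh2 were picked out after their values were seen.

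Other adhesion genes with several peaks or high levels also split. Lrrc4c, which encodes netrin-G ligand 1, had peaks at 991777 and 991916 bp upstream and 155063 bp downstream, and rose to 8.70, 8.36 and 7.16 RPKM in glia, against 2.75, 2.91, 3.78 and 2.74 RPKM in GPC. The groups did not overlap, and the log2 change was 1.36 ± 0.14 (adjusted p = 8.95e-06). Itgb1, the integrin beta chain that binds fibronectin and laminin, fell to 106 ± 9.79 RPKM in glia, against 176 ± 6.91 RPKM in GPC (log2 change -0.77 ± 0.08, adjusted p = 8.04e-06). Lphn3, a latrophilin that binds teneurins across synapses and stands on the channel and receptor list, had 4 peaks, 3 at 352454 to 1345333 bp upstream and 1 at 978743 bp downstream. Its levels were 22.4 ± 1.59 RPKM in glia and 20.4 ± 2.24 RPKM in GPC (log2 change 0.10 ± 0.09, adjusted p = 0.343).

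**Figure D3:**
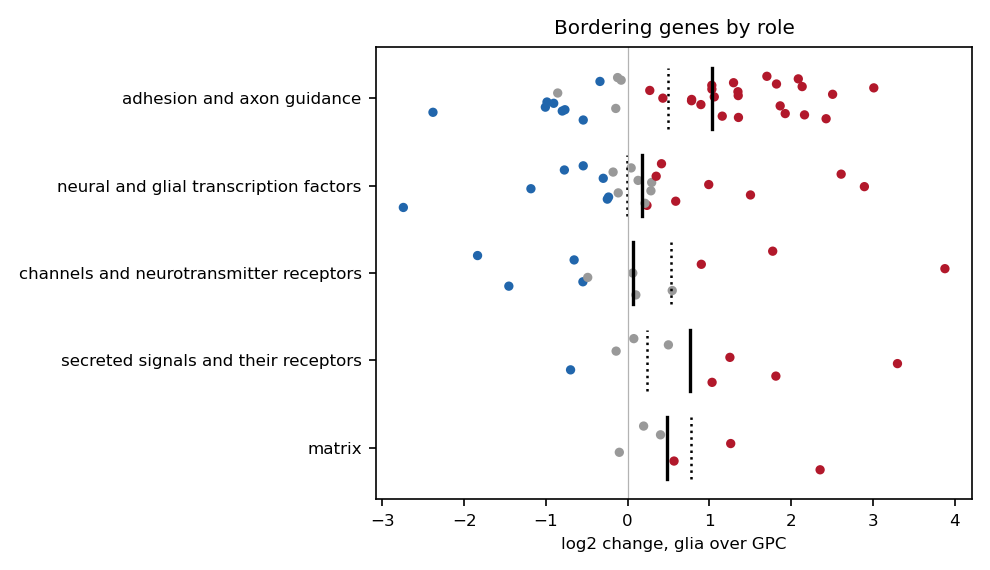
Log2 change of glia over GPC (horizontal axis) for each tested bordering gene, in 5 rows by role; red points rose, blue points fell and grey points did not pass the test. Solid bars mark the median of the bordering genes and dotted bars the median of the same list without far SOX9-only peaks, 1.03 and 0.50 for adhesion and axon guidance.

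Secreted signals and their receptors had 9 bordering genes, of which 8 were tested, 4 rose and 1 fell, with a median log2 change of 0.77. The 183 tested genes of the list without such a peak had 83 rises (45.4%), 57 falls and a median of 0.23, beside 35.2% called in each direction over all genes. Ntrk2 encodes TrkB, the receptor for BDNF, and is also an astrocyte marker. Its far peak lay 283872 bp downstream, at chr13:59192833-59193433. Ntrk2 rose to 319, 315 and 302 RPKM in glia, against 24.6, 25.1, 50.5 and 25.9 RPKM in GPC. The lowest glia library stood well above GPC replicate 3, the highest of its group, and the log2 change was 3.30 ± 0.27 (adjusted p = 1.28e-05), or 3.63 without that replicate. The other rises were of Cxcr4, a chemokine receptor gene (log2 change 1.03 ± 0.07), Pdgfc (1.25 ± 0.11) and Gdf6 (1.81 ± 0.35), and the Notch ligand gene Jag1 fell by 0.70 ± 0.09. Ntrk2 was the only bordering gene on the astrocyte marker list, and no gene of the oligodendrocyte list bordered a far SOX9-only peak.

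Channels and neurotransmitter receptors had 20 bordering genes, of which 9 were too low to test. Of the 11 tested, 3 rose and 4 fell, with a median log2 change of 0.06. The share called, 63.6%, is near the 70.4% called over all genes tested. The list's 261 tested genes without such a peak had 142 rises, 53 falls and a median of 0.53. Grin3a, an NMDA receptor subunit gene with a peak 181982 bp upstream, rose to 7.19, 7.27 and 6.43 RPKM in glia, against 0.232, 0.251, 0.83 and 0.345 RPKM in GPC (log2 change 3.88 ± 0.33). GPC replicate 3 was again the highest of its group and far below glia.

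The matrix list had 8 bordering genes, of which 6 were tested, 3 rose and none fell, with a median log2 change of 0.49. The 133 tested genes of the list without such a peak had 78 rises, 36 falls and a median of 0.78, and over all genes 35.2% were called in each direction. Adamts9, a secreted protease that cleaves proteoglycans, had 3 peaks at 197166 to 309323 bp upstream. It rose to 22.8, 24.5 and 23.99 RPKM in glia, against 4.27, 4.01, 5.20 and 4.59 RPKM in GPC. The groups did not overlap, with a log2 change of 2.35 ± 0.09 (adjusted p = 1.56e-08). Mesenchymal markers moved with it, at 561 to 666 RPKM in sum in glia and 120 to 140.2 RPKM in GPC, and their part was not tested. In bulk RNA, fewer cells of a type and less RNA per cell cannot be told apart.

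Unnamed and noncoding transcripts were the poorest in RNA. Of 66 such bordering genes, 29 were in the table and 10 were tested, with 3 rises (30%) and 2 falls (20%). Over all genes tested, 35.2% were called in each direction. The 1172 tested genes of the list without a far SOX9-only peak had 422 rises (36.0%) and 330 falls (28.2%). Rpl13a-ps1, a pseudogene with 3 peaks, was not in the table. Rbfox1, a neuronal splicing factor gene with 3 peaks, was too low to test, at 0.0929 ± 0.0173 RPKM in glia and 0.0310 ± 0.0255 RPKM in GPC.

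Across roles, the largest rises were of Ccdc148, Slc24a2, Grin3a, Rasgef1b, Vstm2a, Agpat9, Ntrk2 and Ntm, with log2 changes of 3.01 to 5.08. Ccdc148, a coiled-coil protein gene, had 6.59, 7.73 and 6.63 RPKM in glia, against 0.149, 0.176, 0.239 and 0.197 RPKM in GPC (log2 change 5.08 ± 0.15). It was near silent in GPC, with 8 to 21 reads per library. Slc24a2, an exchanger of sodium, calcium and potassium, had 1.23 ± 0.0789 RPKM in glia and 0.0799 ± 0.0248 RPKM in GPC. Rasgef1b, an activator of Ras-like GTPases, had 12.5 ± 2.51 RPKM in glia and 0.807 ± 0.206 RPKM in GPC. All of these were under 1 RPKM on average in GPC. Agpat9, an enzyme of glycerolipid synthesis, had 2.32 ± 0.203 RPKM in glia and 0.202 ± 0.0596 RPKM in GPC. Vstm2a, an immunoglobulin-domain gene whose peak lay 828248 bp upstream, had 1.26 ± 0.242 RPKM in glia and 0.0787 ± 0.0394 RPKM in GPC. Like the genes before them, they had no overlap between glia and GPC. Sorl1, an endosomal sorting receptor gene, rose to 9.21, 9.98 and 7.43 RPKM in glia, against 1.66, 1.61, 0.723 and 1.57 RPKM in GPC (log2 change 2.67 ± 0.25, adjusted p = 2.30e-05). Arrdc4, an arrestin-domain gene, rose by 0.87 ± 0.10 on the log2 scale.

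The largest falls were of Lmcd1, Vav3, Sorcs1, Adam12, Moxd1, Sall3, Fndc1 and Mki67, with log2 changes of -4.41 to -2.55. Lmcd1, a LIM-domain gene with peaks 498512 and 723686 bp upstream, had 1.68, 1.47 and 2.24 RPKM in glia, against 47.0, 43.9, 25.2 and 41.4 RPKM in GPC (log2 change -4.41 ± 0.27). Vav3, an exchange factor for small GTPases, had 2.16 ± 0.0251 RPKM in glia and 29.2 ± 6.39 RPKM in GPC. In both genes GPC replicate 3 was the lowest of its group and still far above glia. Sorcs1, a sorting receptor gene, had 1.77 ± 0.221 RPKM in glia and 15.3 ± 2.40 RPKM in GPC, and Adam12, a metalloprotease gene, 3.22 ± 0.356 RPKM in glia and 27.2 ± 5.50 RPKM in GPC. Each had every GPC library above every glia library. Moxd1, a copper monooxygenase gene, had 0.673 ± 0.0855 RPKM in glia and 5.53 ± 1.63 RPKM in GPC. Fndc1, a fibronectin-domain gene, had 2.33 ± 0.498 RPKM in glia and 14.9 ± 1.41 RPKM in GPC. Mki67 encodes the proliferation antigen Ki-67. Mki67 had 8.99, 12.03 and 7.41 RPKM in glia, against 60.0, 59.8, 34.5 and 60.9 RPKM in GPC, and GPC replicate 3 was again the lowest of its group.

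**Figure D4:**
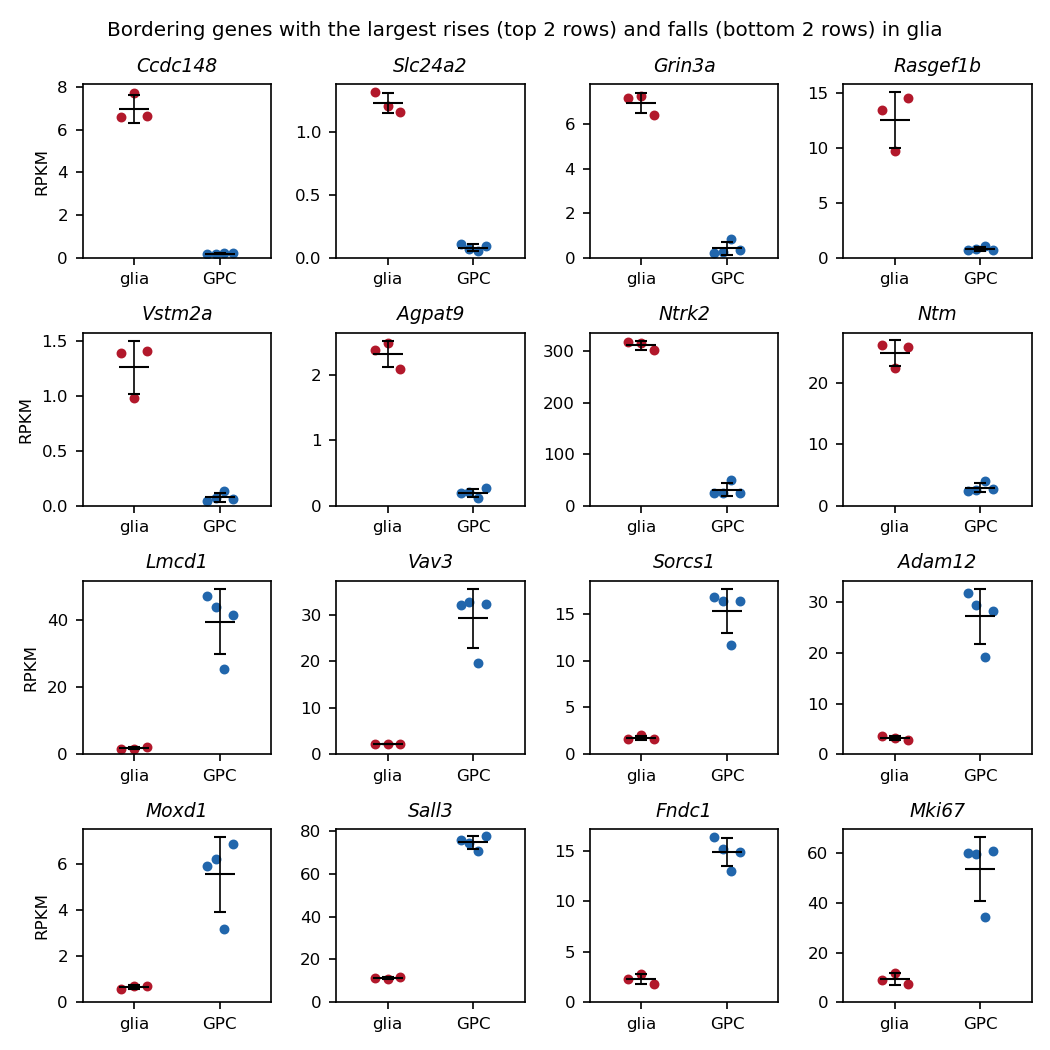
RPKM (vertical axes, linear, scaled per gene) of each glia library (red, left) and GPC library (blue, right) for the 8 largest rises and the 8 largest falls among bordering genes. Horizontal bars are means with 1 SD, and in each panel the 3 glia and 4 GPC points do not overlap.

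The highest levels of all bordering genes belonged to Ntrk2, Qk, Sox2, Ppap2b and Sox4 in glia and to Gm5506, Qk, Tomm20, Itgb1 and Sox4 in GPC. Ppap2b, a lipid phosphate phosphatase of astrocytes, had 181, 174 and 179 RPKM in glia, against 146, 143, 189.96 and 150.03 RPKM in GPC. GPC replicate 3 exceeded all glia libraries. The log2 change of 0.15 ± 0.10 did not pass (adjusted p = 0.214), but it was 0.26 and passed without that replicate (adjusted p = 0.000699). Tomm20, an import receptor of mitochondria, fell to 116 ± 20.2 RPKM in glia, against 205 ± 14.5 RPKM in GPC (log2 change -0.82 ± 0.12).

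As a group, genes bordering far SOX9-only peaks changed about as often as any gene. Of the 462, 418 were found in the expression table and 324 had enough counts to test, which carried 402 of the 577 peaks. Of these, 126 rose in glia, 107 fell and 91 did not pass, so that 71.9% were called, beside 70.4% of all genes tested. The median log2 change was 0.09, beside 0.00 over all genes. Changes of at least 2-fold were called in 73 genes upward (22.5%, beside 16.5% of all genes) and in 38 downward (11.7%, beside 9.24%). In normalised counts, glia and GPC did not overlap in 229 genes (70.7%, beside 69.5%). Without GPC replicate 3, 139 bordering genes rose and 114 fell, 78.1% of those tested, beside 75.8% of all genes.

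More of these genes reached 1 RPKM in glia than in GPC. A mean of at least 1 RPKM was reached by 296 of the 418 genes in glia (70.8%) and by 275 in GPC (65.8%), beside 54.8% in glia and 52.4% in GPC for all genes of the table. Both groups reached it in 269 genes, glia alone in 27, GPC alone in 6 and neither in 116. Median levels were 4.82 RPKM in glia and 4.77 RPKM in GPC. Genes bordering SOX9-only peaks at 1 to 100 kb had medians of 8.14 RPKM in glia and 6.92 RPKM in GPC, with 74.1% of 688 tested genes called. Those bordering far SOX9 peaks shared with SOX3 or NFIA had medians of 5.88 RPKM in glia and 4.54 RPKM in GPC, with 72.8% of 213 called. The sets share genes, and no difference between them was tested.

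Grouped by the nearest far SOX9-only peak, genes at 100 to 200 kb had 45 rises and 53 falls among 143 tested, and genes at 200 to 500 kb had 59 rises and 46 falls among 143. Beyond 500 kb there were 22 rises and 8 falls among 38 tested genes, with a median log2 change of 0.75, beside 35.2% called in each direction and a median of 0.00 over all genes. Without GPC replicate 3 that bin had 22 rises and 9 falls. Neuronal markers (5 of 6) and mesenchymal markers (5 of 5) also rose in glia, and their part in these counts was not tested. The table held 60 genes of that bin, and those not tested were too low. Genes with 2 or more far SOX9-only peaks had 17 rises and 20 falls among 56 tested (66.1% called). No difference between these bins was tested.

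**Figure D5:**
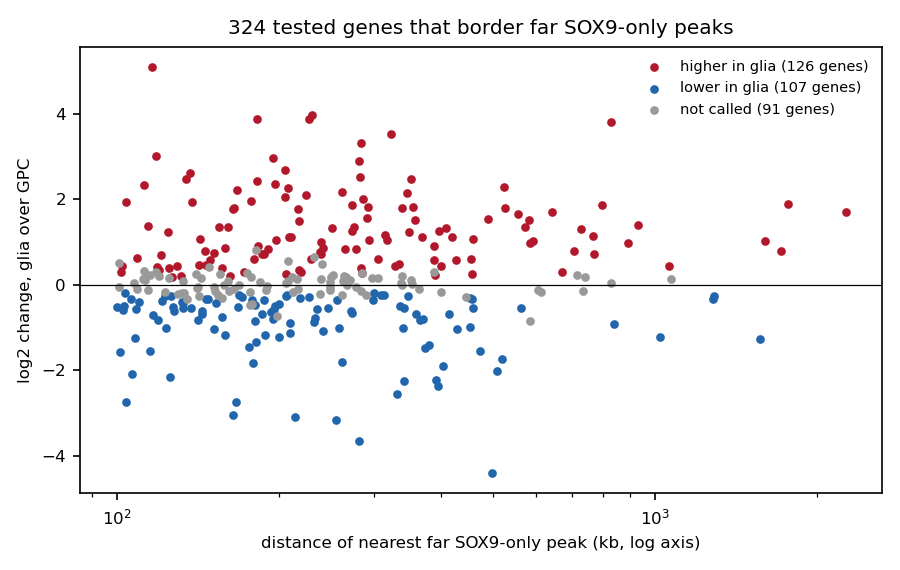
Log2 change of glia over GPC (vertical axis) against the distance in kb of the gene's nearest far SOX9-only peak (horizontal log axis), for 324 tested genes. Red points rose (126), blue fell (107) and grey were not called (91); rises and falls mix below 500 kb, and 22 of the 38 genes beyond 500 kb rose.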

How the data were processed

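RNA was measured by RNA-seq in 3 glia and 4 GPC samples, and SOX9, SOX3 and NFIA binding by ChIP-seq in GPC. For each gene the authors deposited raw read counts and, per the file headers, RPKM values that the authors scaled by gene length and library reads. Counts were used for tests and RPKM for levels. The submitters' processing notes name the build mm9 and the peak callers MACS and MACS2. Aligner, counting tool, use of strand and the way genes were assigned to peaks: not given in the sources used here. A factor has 1 deposited list over all its samples, so peaks have no replicate error. The signed distance per SOX9 and SOX3 peak is the authors' value as deposited, and a positive sign means downstream: with that reading the implied gene start agreed within 2 bp in 328 of 330 genes with several peaks. The NFIA score per peak was deposited by the authors with no stated meaning and was not used for any result. H3K27Ac and input samples were not analysed here.

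Peaks sharing at least 1 base were taken as overlapping. Of the 462 symbols, 407 matched the table directly, 10 through RefSeq synonyms (GRCm38.p6, names and neighbours only), 1 as part of a joined symbol and 44 not at all. Glia were tested against GPC on the counts of the whole table by edgeR's robust quasi-likelihood test, two-sided (edgeR 4.0.16 in R 4.3.3), after TMM scaling and edgeR's default filter for low counts. P-values carry Benjamini-Hochberg adjustment over all 13588 genes tested and were called at 0.05. The common biological coefficient of variation was 0.108. A simulation covered 13440 genes, and only a small part of them, all with ample reads, was given a change between glia and GPC. Among those changed genes, 94% of 2-fold rises and 90% of 2-fold falls were recovered. The rest had no change, whereas 70.4% of genes were called in the data. Recovery among genes with few reads was not tested. DESeq2 1.42.0, other filters and scaling, a replicate block and leaving out each library were tried as alternatives. Gene lists by role were made from general knowledge as symbol patterns. The peaks and lists were chosen with earlier results of these data known, and the SOX, cadherin and IgLON families were grouped after values were seen. Named genes were those with 3 or more far peaks, the 8 largest rises and falls that were called without overlap between groups, the 5 highest levels in each group, the genes of the 5 farthest peaks and of 3 peaks on each side of the limit, listed transcription factor and glial marker genes with 2 or more far peaks, and Sox9, Sox3 and Nfia. Any other gene named was picked after its values were seen.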

Additional observations from a re-analysis of the deposited data

Results flagged for a closer look

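In 13 of 51 named genes examined, 1 GPC library lay apart from its fellows by more than their own spread allows, and in each it was GPC replicate 3. Chance alone flags about 1 in 20 groups. That library was high in 9 genes: Gm5506 at 531 RPKM, Lrrc4c at 3.78 RPKM, Lsamp at 20.3 RPKM, Ntrk2 at 50.5 RPKM, Ppap2b at 189.96 RPKM, Ehf at 0.0101 RPKM, Sox9 at 62.7 RPKM, Sox3 at 122 RPKM and Nfia at 15.8 RPKM. The Ehf value rests on 1 read. It was low in 4 genes: Sorl1 at 0.723 RPKM, Vav3 at 19.6 RPKM, Sorcs1 at 11.7 RPKM and Mki67 at 34.5 RPKM.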

How the results depend on the processing

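Moving the distance limit changed the set itself. There were 877 SOX9-only peaks bordering 707 genes above 50 kb, and 363 peaks bordering 288 genes above 200 kb. A minimum of 0.5 RPKM was reached by 75.1% of bordering genes in glia and 70.3% in GPC, and a minimum of 5 RPKM by 49.5% in glia and 49.0% in GPC. The counts of rises and falls stayed within 1.5 times of 126 and 107 under all alternatives tried, with 123 and 108 by DESeq2, 141 and 108 without a filter and 115 to 139 and 92 to 114 when each library was left out. Whether replicate numbers pair the libraries was not settled. The check used the deviation of each library from the mean log level of its own group, not the levels themselves. These deviations correlated at -0.02, 0.14 and 0.07 between same-numbered glia and GPC libraries. Not every library correlated best with its own number. With so few libraries per group, such correlations cannot decide the question. The replicate block gave 121 rises and 99 falls. Changes of sign were counted only for genes called in the main fit or the alternative. Over 46 named genes and 12 alternatives no such reversal occurred, 20 results lost a call and 6 gained one. These were of Pcdh9, Gm5506, Qk, Sox2, Sox6, Ppap2b, Klf12, Klf6 and Pabpc4l, and the cause was not tested. A comparison with better-scoring SOX9 peaks was not run, since the list has no score. Levels of low genes such as Cdh8 are limited by depth.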
